A study of Mus musculus with 18 samples.

Results

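The Zfp genes are the mouse zinc finger genes whose symbol is Zfp followed by a number. Members were the protein-coding genes of that name on chromosomes 1 to 19 in the RefSeq annotation of GRCm38 (mm10), with Zfp42 left out. The rule found 359 members among 20665 protein-coding genes. They were followed through 18 chromatin immunoprecipitation sequencing (ChIP-seq) libraries from E14 cells, a mouse embryonic stem cell line grown in 2i/LIF medium, which holds the GSK3 inhibitor CHIR99021, the MEK inhibitor PD0325901 and LIF. The untreated group had 2 libraries for each of H3K27me1, H3K27me2, H3K27me3, H3K36me2 and H3K36me3, with no foreign chromatin added. The other 8 libraries covered H3K27me3 and H3K36me2, with 2 each after 7 days in 10 µM of the EZH2 inhibitor EPZ-6438 and 2 each after the same time in an equal volume of DMSO, and had chromatin of Drosophila S2 cells added as a spike-in. All libraries came from sonicated chromatin of the same wild-type line, and the labels do not say whether replicates were separate cultures, so every p-value measures the spread between these libraries, which may be technical.

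Most Zfp genes encode DNA-binding proteins built from tandem C2H2 zinc fingers, and many also carry a KRAB domain, which recruits the corepressor TRIM28 and the H3K9 methyltransferase SETDB1 to retrotransposons and imprinted loci. KRAB zinc finger genes arose by tandem duplication and often lie in clusters, and their fingers are usually encoded together in the last coding exon. The name also covers genes of other kinds, such as Zfp36, which encodes the RNA-binding protein tristetraprolin. H3K27 methylation is made by Polycomb repressive complex 2, whose catalytic subunit is EZH1 or EZH2, and its trimethylated form marks silent developmental genes. H3K36me3 is laid down by SETD2 along transcribed gene bodies, H3K36me2 is made largely by NSD enzymes over broader domains, and H3K36 methylation hinders Polycomb repressive complex 2 on the same histone tail. H3K27me1 is known to lie over transcribed gene bodies.

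Promoter sequence was available for 300 of the 359 members, from RefSeq on GRCm38. The 250 bases before the listed start are shown for 8 members, 5′ to 3′ on the gene's strand, with each CG in capitals. The first set is Zfp503 (chr14:21989602-21989851, minus strand), Zfp316 (chr5:143270023-143270272, minus strand) and Zfp618 (chr4:62965317-62965566, plus strand), shown because their starts carried high H3K27me3 in the untreated libraries.
Zfp503: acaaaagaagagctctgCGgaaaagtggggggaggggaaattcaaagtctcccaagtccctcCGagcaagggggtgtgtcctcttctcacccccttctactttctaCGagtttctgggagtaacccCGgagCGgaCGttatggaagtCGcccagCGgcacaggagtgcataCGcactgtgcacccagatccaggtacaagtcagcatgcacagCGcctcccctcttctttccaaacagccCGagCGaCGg
Zfp316: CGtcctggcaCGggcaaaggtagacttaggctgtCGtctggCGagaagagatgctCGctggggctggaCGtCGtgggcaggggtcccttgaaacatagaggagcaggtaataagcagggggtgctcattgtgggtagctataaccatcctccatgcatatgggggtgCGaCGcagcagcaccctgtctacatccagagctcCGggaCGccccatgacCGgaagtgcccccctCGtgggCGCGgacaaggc
Zfp618: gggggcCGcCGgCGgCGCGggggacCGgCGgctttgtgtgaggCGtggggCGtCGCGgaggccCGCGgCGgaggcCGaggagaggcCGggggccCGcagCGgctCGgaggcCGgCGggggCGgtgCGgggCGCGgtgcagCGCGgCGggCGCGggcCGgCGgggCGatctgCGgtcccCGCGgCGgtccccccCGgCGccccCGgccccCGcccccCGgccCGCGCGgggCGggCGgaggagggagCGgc
They held 13, 15 and 48 CG dinucleotides, and 48 was the highest count among the members.

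The second set is Zfp553 (chr7:127232811-127233060, plus strand), Zfp296 (chr7:19577037-19577286, plus strand) and Zfp598 (chr17:24669437-24669686, plus strand), shown because their last 2 kb carried high H3K36me3.
Zfp553: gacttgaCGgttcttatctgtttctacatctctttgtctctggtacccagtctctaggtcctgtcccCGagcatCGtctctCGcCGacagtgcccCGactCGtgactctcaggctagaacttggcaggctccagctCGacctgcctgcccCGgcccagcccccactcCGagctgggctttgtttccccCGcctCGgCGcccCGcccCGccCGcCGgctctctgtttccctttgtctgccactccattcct
Zfp296: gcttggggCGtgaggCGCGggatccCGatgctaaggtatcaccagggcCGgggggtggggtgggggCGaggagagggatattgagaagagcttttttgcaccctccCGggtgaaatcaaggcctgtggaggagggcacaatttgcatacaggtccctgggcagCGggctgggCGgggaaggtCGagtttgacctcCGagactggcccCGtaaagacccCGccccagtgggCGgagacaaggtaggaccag
Zfp598: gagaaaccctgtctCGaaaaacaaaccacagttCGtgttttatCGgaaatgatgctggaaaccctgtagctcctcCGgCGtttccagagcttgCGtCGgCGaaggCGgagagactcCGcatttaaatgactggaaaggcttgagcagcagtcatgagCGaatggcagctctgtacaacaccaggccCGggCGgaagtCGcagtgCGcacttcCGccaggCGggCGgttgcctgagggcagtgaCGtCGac
These held 17, 14 and 20 CG dinucleotides.

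The third set is Zfp712 (chr13:67061171-67061420, minus strand) and Zfp273 (chr13:67813566-67813815, plus strand), the outer members of the longest run of neighbouring Zfp genes, on chromosome 13.
Zfp712: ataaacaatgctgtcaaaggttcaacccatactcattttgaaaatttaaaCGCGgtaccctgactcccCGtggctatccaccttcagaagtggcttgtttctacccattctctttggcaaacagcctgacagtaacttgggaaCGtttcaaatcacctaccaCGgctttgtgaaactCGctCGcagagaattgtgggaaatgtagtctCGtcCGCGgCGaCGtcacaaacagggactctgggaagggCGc
Zfp273: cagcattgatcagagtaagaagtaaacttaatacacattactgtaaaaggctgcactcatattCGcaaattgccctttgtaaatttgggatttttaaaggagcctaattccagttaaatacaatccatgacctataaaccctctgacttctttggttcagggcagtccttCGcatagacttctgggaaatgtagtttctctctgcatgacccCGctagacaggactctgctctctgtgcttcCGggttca
They held 13 and 4 CG dinucleotides. Over the 300 members the median was 10 (range 0 to 48), and over the 16457 protein-coding genes with a promoter sequence it was also 10. The letters CCAAT, read on both strands of the 250 bases, occurred in 148 members (49.3%) and in 36.3% of all these promoters. GGGCGG occurred in 120 members (40.0%) against 43.6% of all, and TATAAA in 17 members (5.67%) against 12.5% of all. These matches describe the letters in the window and say nothing of a factor's binding.

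Levels are given as the mean reads of the 1 kb windows centred in a region divided by the library's mean over all autosomal windows, in times the genome mean. The regions are the start (1 kb either side of the 5′ end of the gene record), the body (the whole gene record) and the last 2 kb. Bodies were measured for all 359 members, and starts and last 2 kb for the 300 with a listed strand. Untreated libraries held 22.6 to 66.4 M window reads, and the quantitative libraries 21.3 to 109.8 M except for H3K27me3 after the inhibitor, which held 0.976 and 1.75 M. These totals use windows that do not overlap. The window reads of a region sum overlapping windows, so most reads there count in more than 1 window and the reads themselves are fewer. As a check of the cells, 6 of 6 genes of the naive pluripotency network had at least 2 times the genome mean of H3K36me3 over the body in both untreated libraries, and 6 of 6 known Polycomb targets had that level of H3K27me3. Esrrb, one of the naive genes, also had 2.27 of H3K27me3 over the body. A total of 5 members on chromosome 2 (Zfp965, Zfp966, Zfp967, Zfp968 and Zfp973) had no read in any untreated library and could not be tested.

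In untreated cells, Zfp gene bodies carried more H3K36me3 and H3K27me1 and less H3K27me3 than the typical protein-coding gene. The median member had 2.61 times the genome mean of H3K36me3 over the body (2.65 and 2.50 in the 2 libraries), against 1.76 for all genes. Its H3K27me3 was 0.178 (0.179 in each library), against 0.569 for all genes. H3K27me1 stood at 1.55 (1.69 and 1.41) against 1.21, H3K27me2 at 1.03 against 1.20 and H3K36me2 at 1.08 against 1.28. Counted singly, 230 members (64.1%) lay above the all-gene median of body H3K36me3, 245 (68.2%) above that of H3K27me1, and 99 (27.6%) above that of H3K27me3. The lowest 10% of all genes for body H3K27me3 held 84 members (23.4%), and the highest 10% held 17 (4.74%). For body H3K36me3 the highest 10% held 21 members (5.85%) and the lowest 10% held 13 (3.62%), so members were few at both ends, and their 90th percentile was 5.72 against 6.31 for all genes. The lowest 10% of each mark includes the 5 members without reads.

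At the start the largest gap was again in H3K27me3, where the median member had 0.115 (0.130 and 0.111) against 0.488 for all genes. H3K36me3 at the start was 0.877 against 1.04, and H3K36me2 was 1.28 against 1.27. H3K27me1 at the start was 1.11 against 0.951. Replicate 1 had 1.32 against 1.09 and replicate 2 had 0.899 against 0.783, so the members were higher in each library. In the last 2 kb H3K36me3 was 2.22 (2.34 and 1.92) against 1.96, a smaller gap than over the body. The replicate 2 median of 1.92 did not exceed the 1.96 of all genes. That 1.96 is for the mean of the 2 libraries, not for replicate 2 alone. H3K36me2 there was 0.855 against 1.19. In level, both H3K36 marks sat lower, relative to all genes, at the 3′ end than across the body. As a share of the summed levels of the 5 marks, the median member had 35.99% of H3K36me3 over the body against 21.0% in all genes, and 2.76% of H3K27me3 against 12.0%. In the last 2 kb its H3K36me3 share was 38.8%, against 24.1% in all genes.

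**Figure D1:**
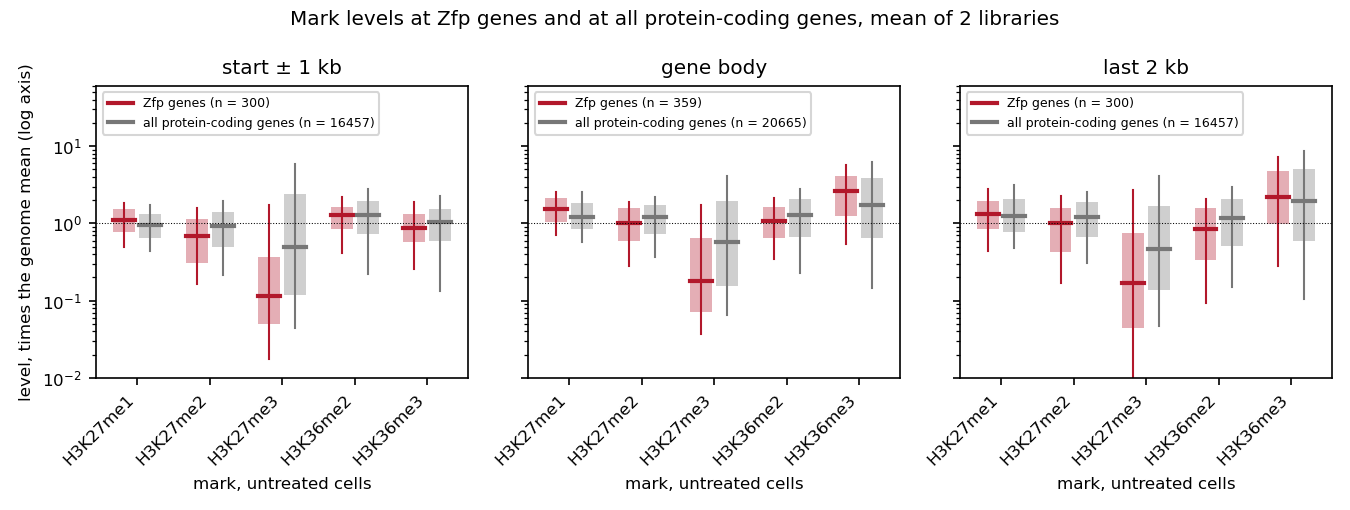
Untreated level of each mark (times the genome mean, log axis) at the start, body and last 2 kb for Zfp genes and for all protein-coding genes, as median (line), 25th to 75th percentile (box) and 10th to 90th percentile (whiskers, which stop at the axis floor of 0.01 where the percentile is 0). The H3K27me3 boxes of the Zfp genes lie lower in all 3 regions (medians 0.115, 0.178 and 0.169), and their body H3K36me3 lies higher (2.61 against 1.76).

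The authors' deposited peak lists, 1 for the 2 untreated libraries of a mark with how they were combined not given in the sources used here, gave the same picture for H3K27me3 when at least 500 bp of overlap was asked for. An H3K27me3 peak overlapped 92 member bodies (25.6%) against 45.2% of all bodies, and 34 of 300 starts (11.3%) against 33.7%. H3K27me1 peaks overlapped 288 bodies (80.2%) against 63.8%. H3K36me2 peaks overlapped 257 bodies (71.6%) against 69.7%, but 115 of 300 last 2 kb regions (38.3%) against 51.4%. No peak list was used for H3K36me3.

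With at least 2 times the genome mean in both libraries as the mark of a high body, 191 members (53.2%) were high in H3K36me3 only, 16 (4.46%) in H3K27me3 only, 16 (4.46%) in both and 136 (37.9%) in neither. The 5 members without reads are counted in neither. Over all genes the shares were 38.1%, 17.1%, 5.78% and 39.0%. Bulk chromatin averages over cells and alleles, so both marks on the same chromatin and each mark in different cells cannot be told apart, and neither can fewer marked cells and a lower level in each cell.

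Several well-studied repressors were in the group with H3K36me3 only. Zfp57 (chr17:37001163-37010729), which binds methylated imprinting control regions, had 5.93 and 4.70 times the genome mean of H3K36me3 over the body and 0.0352 and 0.0515 of H3K27me3. Zfp809 (chr9:22225667-22254117), which directs silencing of murine leukaemia virus and whose record overlaps another coding gene, had 5.56 and 4.87 of H3K36me3 and 0.0704 and 0.0546 of H3K27me3. Zfp568 (chr7:29983955-30028282), a repressor of the placental Igf2 transcript, had 6.88 and 7.47 of H3K36me3. In all 3 genes H3K36me3 was high and H3K27me3 near 0 in both libraries. Members with other roles looked alike: Zfp335 (chr2:164891882-164912585), a regulator of neural progenitors, had 10.2 and 12.1 of H3K36me3 over the body and 0.184 and 0.174 of H3K27me3. The promoter-binding activator Zfp143 (chr7:110061689-110095396) had 5.94 and 5.83 of H3K36me3. For Zfp281 (chr1:136624901-136630391), a transcription factor of pluripotent cells, it was 4.51 and 3.92. The RNA-binding members were similar, with 4.83 and 6.60 in Zfp36 and 4.25 and 4.17 in Zfp106. Zfp207, a kinetochore and spindle protein, had 4.15 and 2.84. Zfp91, whose record overlaps another coding gene, had 2.07 and 1.44 and so did not reach 2 in both libraries.

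In the last 2 kb, H3K36me3 was highest in Zfp335 (13.6 and 17.8), Zfp553 (14.0 and 17.0) and Zfp513 (12.7 and 16.0). The other promoters of the second set belong to Zfp296, a gene expressed in pluripotent cells, with 10.8 and 12.7, and Zfp598, a ubiquitin ligase of ribosome quality control, with 9.99 and 13.0. All 5 were above 9 in both libraries. Among levels above 0, the lowest were in 3 members: Zfp987 and Zfp616 each had 0.0697 and 0 in the last 2 kb and Zfp735 had 0.0929 and 0.

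The highest body H3K27me3 was in Zfp579, Zfp853, Zfp703 and Zfp503. Zfp579 (chr7:4992852-4996101) had 15.1 and 13.9 times the genome mean of H3K27me3 with 3.80 and 3.14 of H3K36me3. Zfp853 (chr5:143285999-143293982) had 12.8 and 13.0 of H3K27me3 with 2.41 and 2.85 of H3K36me3. Zfp703 (chr8:26977336-26981462), a developmental corepressor, had 11.8 and 11.4 of H3K27me3 with 3.06 and 2.996 of H3K36me3. These 3 genes passed the 2-fold level for both marks. Its relative Zfp503 (chr14:21983959-21989601), known from forebrain and limb development, had 10.6 and 11.1 of H3K27me3 over the body and 10.4 and 11.2 at its start, with H3K36me3 at 1.80 and 1.47. The gene was therefore high in H3K27me3 only. Zfp423 (chr8:87661810-87962053), a regulator of adipocyte and cerebellar development, had 13.3 and 13.5 of H3K27me3 at the start but 4.13 and 3.36 over its body. Zfp536, a regulator of neuronal differentiation, had 5.87 and 6.98 at the start and 3.29 and 3.03 over the body. In both of these long genes H3K27me3 was higher around the start than along the body. Zfp521, a relative of Zfp423, had a lower body level of 1.54 and 1.29, with 0.846 and 0.773 of H3K36me3.

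**Figure D2:**
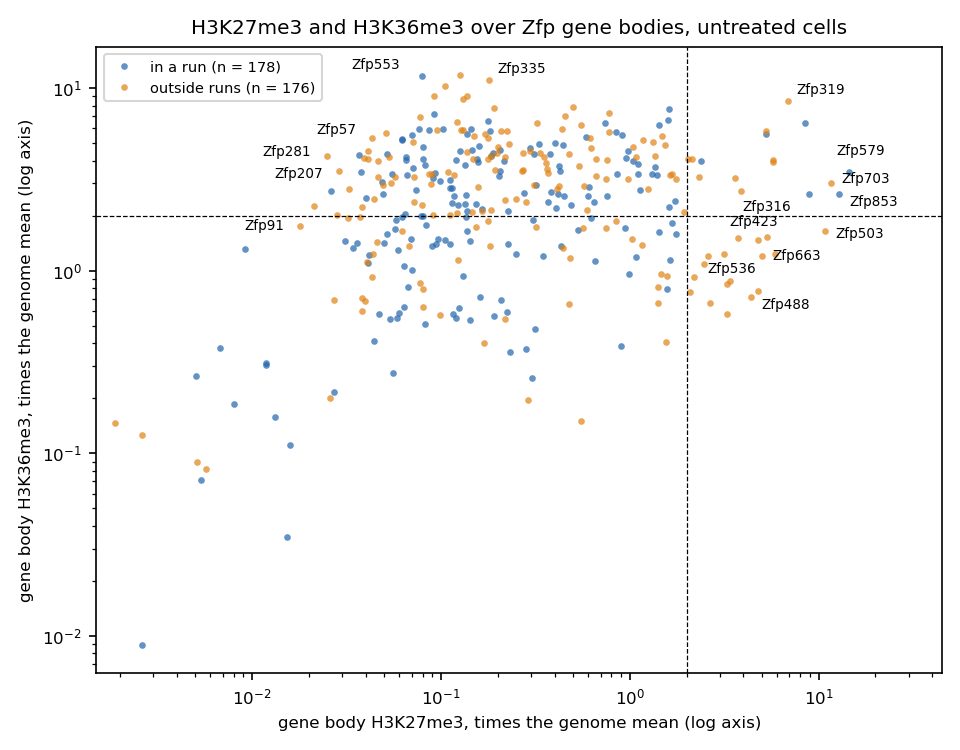
Mean untreated H3K27me3 over the body (horizontal) against H3K36me3 (vertical) in each Zfp gene with reads, both in times the genome mean on log axes, with members in runs of neighbours (178) and outside runs (181, of which the 5 without reads are not drawn) in different colours and dashed lines at 2. Most points lie left of the vertical line, and Zfp579, Zfp853, Zfp703 and Zfp503 lie at the far right.

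H3K27me3 at the start reached 2 times the genome mean in both libraries in 26 of 300 members (8.67%), against 26.0% of all genes. Within 1 kb of the start listed with the promoter sequence, which can differ from the 5′ end of the gene record, their median level was 5.07, and their median CG count in the 250 bases was 13.5 against 10 for all members. When the members were split into 3 groups by CG count (medians 4, 10 and 18), the median H3K27me3 within 1 kb of that listed start was 0.0761, 0.102 and 0.177, and H3K36me3 was 0.695, 0.893 and 1.24. Both marks were higher in the groups with more CG, and in each group the H3K27me3 median stayed below the genome mean. Gene length went with the marks too: of 3 groups of equal size, the shortest bodies had a median H3K36me3 of 3.49, the middle ones 2.48 and the longest 1.92. The median length was 44730 bases in members high in H3K27me3 only, 6833 in those high in both, 15985 in those high in H3K36me3 only and 22619 in those high in neither.

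Across the 354 members with reads, the body levels of H3K27me1 and H3K36me3 rose together (Spearman 0.72), as they did across all genes (0.78). H3K27me3 went with H3K27me2 (0.78) and with H3K36me2 (0.77), against 0.50 and 0.59 across all genes. Its correlation with H3K36me3 was 0.18, against −0.15 across all genes. These are descriptions over genes that share the same libraries, windows and mappability, and genes are not replicates.

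Zfp genes clustered along the chromosomes: chromosome 7 held 90, chromosome 17 held 41 and chromosome 13 held 32. With starts less than 200 kb apart and at least 3 members as a run, 178 members lay in 29 runs and 181 outside. Body H3K27me3 was high, by the same 2-fold level, in 6 of the 178 members in runs (3.37%) and in 26 of the 181 outside (14.4%), against 22.8% of all genes, and all 16 members high in H3K27me3 only lay outside runs. H3K36me3 was high in 98 members in runs (55.1%) and 109 outside (60.2%), against 43.9% of all genes. Median body levels were 0.138 in runs against 0.217 outside for H3K27me3, 2.40 against 2.94 for H3K36me3, 0.963 against 1.19 for H3K36me2 and 1.58 against 1.52 for H3K27me1. Members of a run share a locus and related sequence, so they are not independent.

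Run medians went from 0.313 to 5.21 for H3K36me3 and from 0.0119 to 8.87 for H3K27me3. The median member was at 2 or more for H3K36me3 in 20 of the 29 runs and under 1 in 4 runs. The longest run, 19 members from Zfp712 to Zfp273 (chr13:67038594-67827000), had a median H3K36me3 of 0.717 with members from 0.11 to 2.57. Zfp712 had 0.657 and 0.419 and Zfp273 1.28 and 1.37. The 18 members from Zfp677 to Zfp946 (chr17:21383707-22456689) had a median of 1.18. By contrast, the 15 members from Zfp84 to Zfp146 (chr7:29768552-30169775), which include Zfp568, had a median of 4.04 with no member under 2.21. The 5 members from Zfp653 to Zfp810 (chr9:22055411-22307814), which include Zfp809, had the highest median, 5.21. The chromosome 13 run was low in other marks too. Its medians were 1.06 for H3K27me1 and 0.667 for H3K36me2, against 1.93 and 1.59 in the run from Zfp84 to Zfp146. For H3K27me2 and H3K27me3 they were 0.688 and 0.118, against 1.60 and 0.330. As a share of the 5 marks, its median H3K36me3 was 27.5%, against 43.9% in that run and 21.0% in all genes. The run from Zfp972 to Zfp931 had 23.7%. H3K27me3 medians were under 1 in 25 of the 29 runs and at least 2 in 1 run. That run was Zfp12, Zfp316 and Zfp853 (chr5:143235138-143293982), with a median of 8.87 for H3K27me3 and 2.63 for H3K36me3. Within it Zfp316 had 8.84 and 8.89 of H3K27me3, while its neighbour Zfp12 had 1.88 and 1.33 and a high H3K36me3 of 7.55 and 7.87. The lowest H3K27me3 levels above 0 were in Zfp433, Zfp960 and Zfp987, where 41.2%, 27.5% and 15.3% of body windows had no read in any untreated library. The part of such windows in the low levels was not tested beyond leaving them out.

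**Figure D3:**
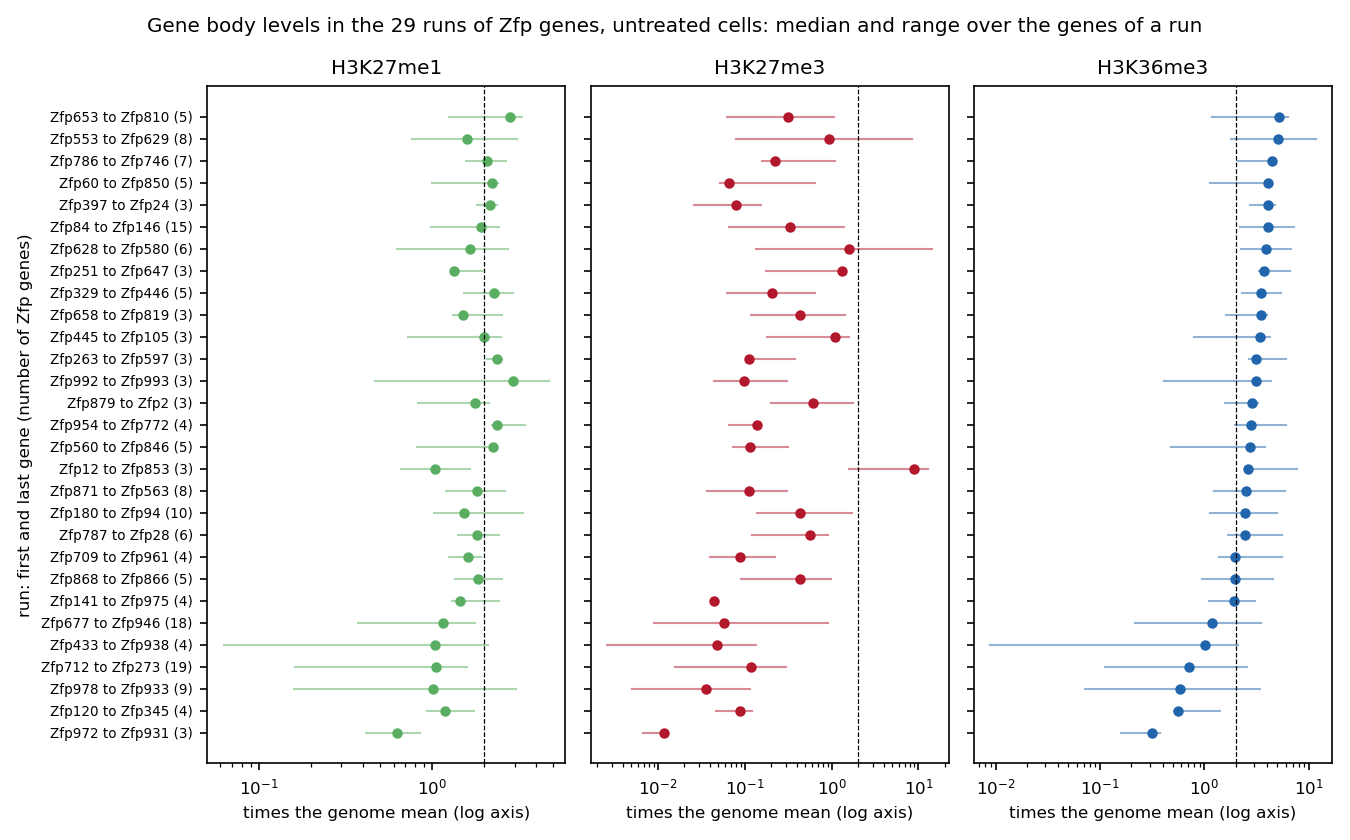
Median (point) and range (line) over the members of each of the 29 runs for untreated H3K27me1, H3K27me3 and H3K36me3 over the body, in times the genome mean on a log axis. H3K36me3 medians go from 0.313 in the run from Zfp972 to Zfp931 to 5.21 in the run from Zfp653 to Zfp810, with the longest run, on chromosome 13, at 0.717. The chromosome 5 run stands apart in H3K27me3 at 8.87.

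Within each untreated library, the last 2 kb was compared with the start and with the interior of the body, by limma across all genes that held enough reads, with Benjamini-Hochberg adjustment. Each gene had 1 estimate of the spread, shared by the 10 untreated libraries of the 5 marks. The SE and p-value of a mark therefore rest largely on the replicates of other marks and can understate its own spread. In 280 members H3K36me3 was higher at the 3′ end than at the start in 200 (71.4%) and lower in 28 (10.0%), where the background over all genes was 60.8% higher and 12.9% lower. With the start taken as the first 2 kb of the gene, 164 of 275 members were higher (59.6%) and 38 lower (13.8%), against 57.2% and 13.3% of all genes, so the gap to the background nearly closed. Zfp146 had 0.256 and 0.654 times the genome mean of H3K36me3 at the start and 9.97 and 10.7 in the last 2 kb, a gap far wider than that between libraries (log2 difference 3.96, SE 0.24, limma adjusted p = 2.18e-13). Zfp27, also on chromosome 7, had 0.418 and 0.463 at the start and 8.67 and 9.23 in the last 2 kb. Zfp560 went the other way, with 1.98 and 2.53 at the start and 0.395 and 0.0272 at the end (−2.56, SE 0.29, limma adjusted p = 5.28e-09). Its 2 libraries lay further apart than this SE, pooled over the marks, shows. In that gene 7.50% of body windows held no read.

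Against the interior of the body, however, the members' 3′ ends were more often lower. Among 277 members H3K36me3 in the last 2 kb was higher than in the interior in 78 (28.2%) and lower in 97 (35.0%), where the background was 38.1% higher and 17.9% lower. The median log2 difference was −0.08 for members and 0.18 for all genes. Without replicate 1 the members' median was −0.10 and without replicate 2 it was −0.004, against 0.19 for all genes in each case. The largest fall was in Zfp281, whose last 2 kb had 1.65 and 0.33 (−2.81, SE 0.23, limma adjusted p = 9.46e-09). Here too the 2 libraries lay further apart than the SE, pooled over the marks, shows. Zfp13 had 4.05 and 4.48 in the interior and 0.79 and 0.436 in the last 2 kb. Zfp688 went the other way, with 1.67 and 1.82 in the interior and 6.25 and 8.20 in the last 2 kb (1.89, SE 0.17, limma adjusted p = 2.04e-08). In both directions the values of the 2 libraries did not overlap between the regions.

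H3K36me2 was lower at the 3′ end than at the start in 121 of 280 members (43.2%) and higher in 36 (12.9%), with backgrounds of 27.5% and 19.5%. Against the interior it was lower in 114 of 277 (41.2%) and higher in 33 (11.9%), with backgrounds of 27.2% and 17.3%. Zfp988 had 2.02 and 1.73 times the genome mean of H3K36me2 at the start and 0.0834 and 0.0462 at the end (−2.75, SE 0.23, limma adjusted p = 8.67e-10). Zfp59 had 1.97 and 2.44 at the start and 0.139 and 0.200 at the end. In both genes H3K36me2 was lower at the end in each library. Zfp988 was also lower at the end in H3K27me1 (log2 difference −1.67) and H3K27me2 (−2.05), so its fall was not particular to H3K36me2. Without replicate 1 the members' median log2 difference between end and start was −0.36, and without replicate 2 it was −0.48, against −0.06 and −0.12 for all genes. Zfp618, whose CG-rich promoter is shown above, had the largest rise (1.90, SE 0.22, limma adjusted p = 1.28e-07).

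H3K27me1 was higher at the 3′ end than at the start in 101 of 280 members (36.1%) and lower in 46 (16.4%), with backgrounds of 44.4% and 9.10%. Against the interior it was higher in 45 of 277 (16.2%) and lower in 91 (32.9%), with backgrounds of 24.3% and 17.0%. Zfp143 had 0.259 and 0.116 at the start and 2.88 and 2.22 at the end (2.69, SE 0.22, limma adjusted p = 1.07e-09). Without replicate 2 the members' median log2 difference between end and start was 0.14, and without replicate 1 it was 0.40, against 0.28 and 0.61 for all genes. For H3K27me2 the counts against the start were 110 higher (39.3%) and 35 lower (12.5%), near the backgrounds of 38.6% and 12.0%. Against the interior they were 49 higher (17.7%) and 69 lower (24.9%), with backgrounds of 22.7% and 16.4%. The members had lower levels at the 3′ end than in the interior more often than the background for H3K27me1, H3K27me2, H3K36me2 and H3K36me3. As a share of the summed levels of the 5 marks, however, their median H3K36me3 was 35.2% in the interior and 38.8% in the last 2 kb. All genes had 25.1% and 24.1%. The interior medians were over 287 members and 13305 genes, and those of the last 2 kb over 294 and 16237. The 2 regions were thus not compared in the same genes. A share also depends on the levels of the other marks, so it does not show a change in H3K36me3 itself. No input library was used, and whether reads of all marks were recovered less well at the 3′ end was not tested.

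H3K27me3 at the 3′ end was higher than at the start in 81 of 280 members (28.9%) and lower in 48 (17.1%), where the background was 24.8% higher and 32.6% lower. With a pseudocount of 0.05 in place of 0.25, 95 were higher (33.9%, all genes 27.3%) and 74 lower (26.4%, all genes 34.2%). Against the interior it was higher in 71 of 277 (25.6%) and lower in 57 (20.6%), with backgrounds of 25.2% and 28.0%. Zfp580 had 0.149 and 0.111 times the genome mean at the start, 0.706 and 0.689 in the interior and 7.13 and 8.67 at the end (end against start 4.42, SE 0.24, limma adjusted p = 6.12e-15). Zfp787 had 0.339 and 0.379 in the interior and 7.95 and 6.85 at the end (3.65, SE 0.14, limma adjusted p = 5.94e-13). Zfp653 had 0.0743 and 0 at the start and 3.92 and 3.45 at the end. In these 3 genes the last 2 kb exceeded the genome mean and the interior lay below it. Zfp800 had the reverse, with 4.83 and 4.25 at the start and 0.111 and 0.222 at the end (−3.53, SE 0.23, limma adjusted p = 2.61e-13). Zfp445, which maintains imprints together with Zfp57, had 2.27 and 2.65 at the start and 0.241 and 0.0445 at the end.

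**Figure D4:**
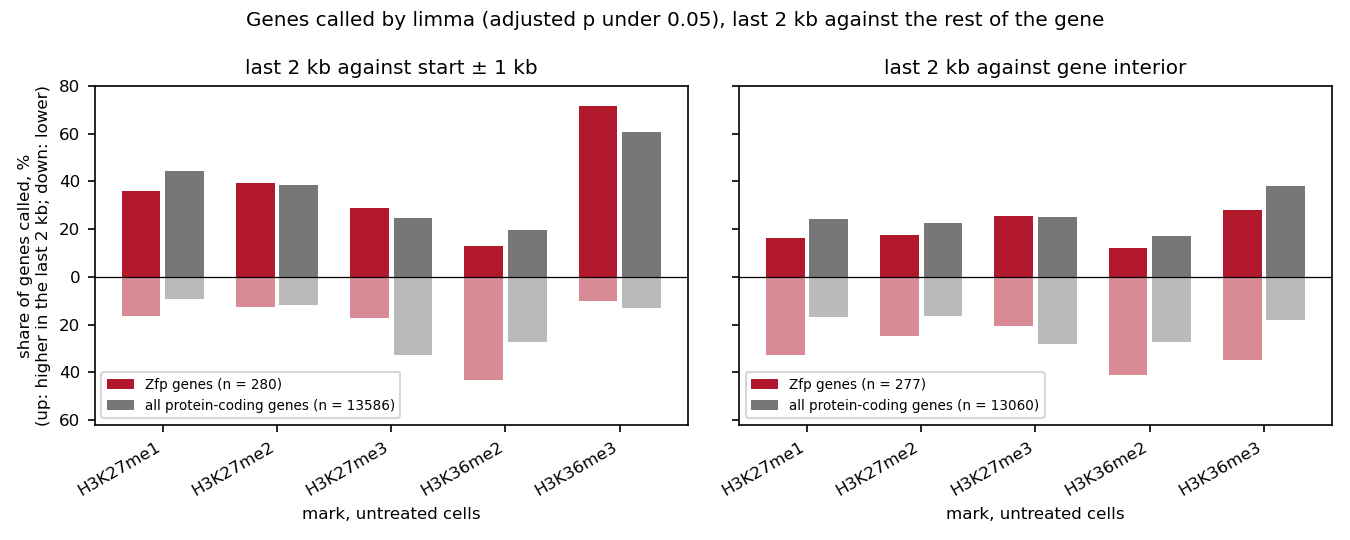
Share of genes (percent) whose last 2 kb was higher or lower than the start (Zfp n = 280, all genes n = 13586) or than the interior of the body (Zfp n = 277, all genes n = 13060) by limma at an adjusted p under 0.05, for each mark. The H3K36me3 bars show the Zfp genes above the background for lower than the interior (35.0% against 17.9%) and for higher than the start (71.4% against 60.8%), where the gap nearly closed with the start taken as the first 2 kb of the gene (59.6% against 57.2%).

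EPZ-6438 lowered H3K27me3 over nearly every Zfp gene on the spike-in scale, which is scaled reads per window. The mean member body had 49.0 and 36.8 under DMSO and 0.140 and 0.111 after the inhibitor, 42.9 ± 8.61 against 0.126 ± 0.0205 (SD, n = 2), or 341-fold lower. All genes were 427-fold lower by the same measure. No DMSO and inhibitor value came close, but the exact permutation test of 2 against 2 libraries cannot go below p = 0.33. In the limma fit across all genes 348 of 354 members were called lower and 0 higher, and 98.4% of all genes were called lower. The 6 not called were Zfp979, Zfp534, Zfp433, Zfp429, Zfp97 and Zfp397. Per-gene folds over 352 members ran from 3.44 to 1642, with a median of 149. How the submitters derived the spike-in factor was not given in the sources used here, so the folds rest on the deposited scaling.

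The 3 largest fitted falls were in members with high H3K27me3 in untreated cells. Zfp703 had 951 and 702 scaled reads per window in DMSO and 0.575 and 1.03 after the inhibitor, on 1280, 1667, 19 and 83 window reads (log2 change −8.84, SE 0.26, limma adjusted p = 2.54e-06). Zfp503, whose promoter is shown above, went from 867 and 588 to 0.605 and 1.58 (−8.46, SE 0.33, limma adjusted p = 2.78e-06). Zfp853 had 911 and 791 against 1.30 and 1.70 (−8.41, SE 0.22, limma adjusted p = 2.54e-06). Zfp579 went from 1096 and 811 to 3.04 and 3.34, 299-fold lower. Zfp319, which overlaps 2 other coding genes, had the highest fold, from 422 and 278 to 0.220 and 0.207. Among members with little H3K27me3, Zfp57 fell from 5.94 and 2.31 to 0.127 and 0.016 on 19, 13, 10 and 3 window reads, so its fold of 57.7 is loosely held. The fitted changes add a pseudocount of 1 and understate the change in genes with low levels.

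In the reads left after the inhibitor, the medians of the member groups lay closer to the library mean than in DMSO. No input library was used, so remaining H3K27me3 and non-specific reads cannot be told apart at this depth. Some members went the other way: in the run from Zfp12 to Zfp853 the median rose from 14.0 in DMSO to 18.9 times the genome mean. Scaled to its own library mean, the average member body rose from 0.955 and 0.978 times the genome mean to 1.46 and 1.59, a log2 change of 0.66, while all genes rose by 0.33. At the start the members went from 1.03 and 1.05 to 1.90 and 1.88 (0.86, all genes 0.35). In the last 2 kb they went from 0.963 and 0.994 to 1.29 and 1.35, a change of 0.43 that was close to the 0.37 of all genes. In members high in H3K36me3 only, the median went from 0.335 and 0.315 to 1.33 and 1.26. In members high in neither mark it went from 0.119 and 0.147 to 0.524 in both libraries. Members high in H3K27me3 only went down, from 3.44 and 3.25 to 2.19 and 1.82, as did those high in both, from 6.49 and 5.95 to 3.95 and 3.07. The medians of both groups high in H3K27me3 stayed above those of the other members in each inhibitor library.

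By limma 178 of 354 members (50.3%) were higher in relative H3K27me3 and 10 (2.82%) lower, where the background was 34.6% higher and 11.2% lower. Leaving out either DMSO library brought the count to 0. The members' median log2 change was 1.04 without DMSO replicate 1 and 1.03 without DMSO replicate 2, against 0.30 and 0.31 for all genes. With values centred on the all-gene median 144 members were higher (40.7%) and 21 lower (5.93%), against 27.9% and 20.96% of all genes. The inhibitor libraries held a median of 15 and 25 window reads per member body, against 87 and 126 in DMSO, and on simulated reads at these depths this fit called unchanged bodies too often. Zfp414 went from 0.185 and 0.341 to 4.54 and 1.97 (log2 change 2.69, SE 0.46, limma adjusted p = 0.0215), on 8, 19, 9 and 7 window reads. Zfp553, whose 3′ end was rich in H3K36me3, went from 0.290 and 0.179 to 1.51 and 4.37 (2.57, SE 0.55, limma adjusted p = 0.0332). Zfp982 went from 0.168 and 0.196 to 1.31 and 3.50. In all 3 genes the inhibitor libraries lay above both DMSO libraries but were far apart from each other. Zfp319 went down, from 8.24 and 7.40 to 2.29 and 2.95 (−1.498, SE 0.18, limma adjusted p = 0.0122). Zfp488, a regulator of oligodendrocyte differentiation, went from 5.02 and 4.33 to 2.21 and 1.70 (−1.17, SE 0.19, limma adjusted p = 0.0196), and Zfp663 from 4.39 and 4.87 to 2.60 and 1.93. These 3 genes kept levels above the genome mean. Zfp579 had 21.4 and 21.6 in DMSO and 31.7 and 47.6 after the inhibitor, but did not pass (0.85, SE 0.25, limma adjusted p = 0.066). It kept the highest relative level among these genes in all 4 libraries.

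**Figure D5:**
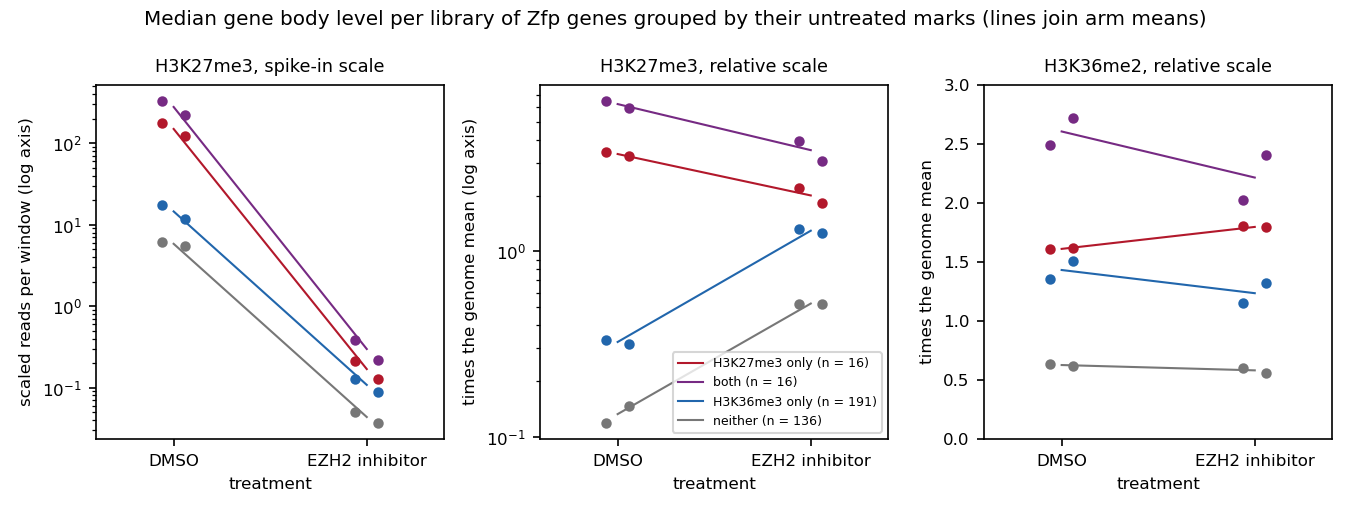
Median over members of each group (high in untreated H3K27me3 only, in both marks, in H3K36me3 only, in neither) in each DMSO and inhibitor library, for H3K27me3 in scaled reads per window, H3K27me3 in times the genome mean and H3K36me2 in times the genome mean. The H3K27me3 axes are log and the H3K36me2 axis is linear. On the spike-in scale all groups fall, and on the relative scale the H3K36me3-only group rises from 0.335 and 0.315 to 1.33 and 1.26.

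H3K36me2 over the members did not pass a test in the fits without a replicate block. On the spike-in scale the mean body had 401 and 285 scaled reads per window in DMSO, and 434 and 273 with the inhibitor (log2 change 0.04, exact permutation p = 1). The 2 libraries of each group were further apart than the groups. In the limma fit 0 of 354 member bodies passed, and the background was 0.397% higher and 0.0298% lower. At an unadjusted p under 0.05 there were 0 members, against 449 of 20156 genes. Scaled to the library mean, starts went from 1.23 and 1.25 to 1.03 and 1.06 (−0.25, exact permutation p = 0.33, the smallest possible), while all genes moved by −0.16. Bodies went from 1.18 and 1.27 to 1.02 and 1.14 (−0.17), and all genes by −0.12. No start was called by limma (0 of 290), nor any body (0 of 354) or last 2 kb (0 of 285), and the background was 0% in all 3 fits. At an unadjusted limma p under 0.05 there were 57 member starts (all genes 2667 of 16018), 39 bodies (3202 of 20156) and 10 last 2 kb regions (975 of 16000). limma-voom on the recovered reads also called 0 in these 3 fits. With the replicate number as a block, 6 of 290 starts were called lower (2.07%) and 0 higher, where 1.01% of all starts were lower and 1.17% higher. The block called no member in the other H3K36me2 fits, but raised the background to 7.06% higher over bodies on the spike-in scale and to 1.76% higher in the last 2 kb on the relative scale. By group, body H3K36me2 went from 1.61 in both DMSO libraries to 1.80 and 1.79 in members high in H3K27me3 only, and from 1.36 and 1.503 to 1.15 and 1.32 in those high in H3K36me3 only. Members high in both marks went from 2.49 and 2.71 to 2.02 and 2.40, and those high in neither from 0.631 and 0.622 to 0.600 and 0.563. These medians, scaled to the library mean, were thus higher after the inhibitor in the group high in H3K27me3 only and lower in the other 3 groups. On the spike-in scale the group high in H3K27me3 only had 546 and 362 in DMSO and 764 and 427 after the inhibitor. The group high in H3K36me3 only had 462 and 337 against 489 and 314. Members high in both had 848 and 609 against 859 and 572, and those high in neither 215 and 140 against 255 and 134. On that scale DMSO and inhibitor values overlapped in every group. Differences between the groups were not tested.

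Zinc finger genes with other names, and the partners of KRAB proteins, are given for comparison. Of 34 Zbtb genes, which pair fingers with a BTB domain, 29 (85.3%) were high in body H3K36me3 and 3 (8.82%) in H3K27me3, with a median H3K36me3 of 3.43. Of 22 Zscan and Zkscan genes, which carry a SCAN domain, 17 (77.3%) were high in H3K36me3 and 2 (9.09%) in H3K27me3, with a median of 3.62. The Zfp shares were 57.7% and 8.91%, and those of all genes 43.9% and 22.8%. All 15 genes of a corepressor list were high in H3K36me3, among them Trim28 at 12.7, Setdb1 at 6.41, Chd4 at 9.16 and Dnmt1 at 8.97. Body H3K27me3 was high in 1 of them, Chd3, a NuRD remodeller, at 5.22. At the start, mean H3K27me3 was at least 2 in 2 of the 13 with a listed strand, Dnmt1 at 3.59 and Dnmt3a at 2.08.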

How the data were processed

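The authors deposited 1 signal track per library on a log2 scale, log2(1 + reads × a factor), in 1 kb windows every 500 bp on mm10 (GRCm38), read from the values. All values gave whole reads at a tolerance of 0.02. The factor acted per library size in the untreated libraries and was taken as the Drosophila spike-in factor in the others, where chromatin of S2 cells at 0.05% of the total was added per the labels. Deposited peak lists for 4 marks carry a score per peak, which was not used. Trim Galore 0.4.2, Bowtie2 2.2.6.2, SICER and the builds mm10 and dm3 are named in the submitters' processing notes. No input library was used here.

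Gene records came from RefSeq, and strands were listed for 300 of 359 members. A window counted for a region where its centre lay in it. Fits used limma 3.58.1 in R 4.3.3 on all protein-coding genes with at least 50 window reads over the 10 untreated libraries, on log2 values with a pseudocount of 1 (spike-in scale) or 0.25 (relative scale), with Benjamini-Hochberg adjusted p under 0.05. The comparison of the last 2 kb with the start used genes of at least 3000 bases. With the first 2 kb as the start, genes had to be long enough that the regions did not overlap. The interior ran from 1 kb past the start to 2 kb before the end and had to be at least 1 kb long. Comparisons along the gene used 1 estimate of the spread per gene, shared by the 10 untreated libraries of the 5 marks. Means over members were compared by a two-sided exact permutation test of 2 against 2 libraries, which cannot go below p = 0.33. Other steps used Python 3.11.15, numpy 2.4.6, pandas 2.3.3, scipy 1.17.1 and matplotlib 3.10.9. The scripts were tested on simulated data, where the relative H3K27me3 fit at the inhibitor's depth called unchanged bodies too often. Intervals of counting error were not computed for windows that overlap.

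Members and lists were chosen with earlier results of these data known. Named members were the 3 extremes of body H3K27me3 and of H3K36me3 in the last 2 kb, the 3 largest rises and falls in each fit (examples of these are printed), members with well known roles, and the longest run. Zfp12, Zfp316, Zfp296 and runs other than the longest were picked after their values were seen. Alternatives were other pseudocounts, windows, filters, scaling and starts, a replicate block, and leaving out each replicate.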

Additional observations from a re-analysis of the deposited data

How the results depend on the processing

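Of 189 summary values recomputed under the alternatives, 168 were counted as the same, 11 reversed, 7 moved, 2 no longer passed and 1 newly passed. For a fit, the same meant an unchanged majority direction and a number of members called within a set fold of the main one. Such numbers could still differ: for H3K27me2 against the interior, 118 members were called, and 82 with a pseudocount of 0.05. The relative H3K27me3 count over bodies ran from 0 (without either DMSO replicate) to 276 when 1 library was left out, where the lone sample is assumed to vary like the other group. Calls over all genes moved the same way, to 0 without either DMSO replicate and up without either inhibitor replicate. The members' median log2 change was 1.06 without inhibitor replicate 1 and 1.07 without inhibitor replicate 2, against 0.35 and 0.33 for all genes. With limma-voom on recovered reads, an alternative chosen after seeing the data, the count was 240 higher (67.8%, all genes 43.7%) and 22 lower (6.21%, all genes 14.1%). With the replicate block it was 141 higher (39.8%, all genes 27.5%) and 4 lower (1.13%, all genes 4.78%). The block on H3K36me2 at starts called 6 members, all lower (2.07%, all genes 1.01% lower and 1.17% higher). It called 0 members in the other H3K36me2 fits, while calls over all genes went from 86 to 1459 for bodies on the spike-in scale and from 0 to 366 for the last 2 kb. Same-numbered libraries correlated in their deviations over genes by 0.062 and 0.095 for H3K27me3, and by 0.209 to 0.640 for H3K36me2. With only 2 pairs the numbers are not shown to pair the libraries. The fits without a block make no allowance for a replicate effect shared by the H3K36me2 groups. Leaving out 1 replicate gave, for the last 2 kb against the start, 87 to 119 members called for H3K27me1, 94 to 103 for H3K27me2 and 95 to 109 for H3K36me2, and against the interior 77 to 91, 47 to 66 and 89 to 102. Calls over all genes fell too, and the directions did not fall alike: without replicate 2, members with higher H3K27me1 at the end than at the start went from 101 to 53 (all genes 44.4% to 25.7%) and those lower from 46 to 34 (all genes 9.10% to 6.81%). The share of members called was below that of all genes for H3K27me1 against the start and above it in the others listed. The excess was smallest for H3K27me2. Without replicate 1 and then 2, the members' median H3K27me2 log2 difference from the start was 0.33 and 0.29 (all genes 0.36 and 0.31). From the interior it was −0.14 and −0.19 for H3K27me1 (all genes 0.09 and 0.06) and −0.04 in both for H3K27me2 (0.07 and 0.08). For H3K36me2 it was −0.23 and −0.25 (all genes −0.07 and −0.08). With the most upstream listed start, Zfp595 had −0.93 for H3K36me2 at the end against the start, in place of 1.36. On the relative scale the mean change over members was 0.86, 0.66 and 0.43 for H3K27me3 at starts, bodies and last 2 kb (all genes 0.35, 0.33 and 0.37). It was −0.17 and −0.16 for H3K36me2 over bodies and last 2 kb. These were opposite in sign to the spike-in scale, because the relative scale divides by each library's mean. For H3K27me3 that mean was 51.3 and 37.6 scaled reads per window in DMSO and 0.0959 and 0.0702 after the inhibitor. For H3K36me2 it was 340 and 225 in DMSO and 425 and 238 after the inhibitor. What moved the library means was not tested. Leaving out 1 library moved the spike-in H3K36me2 change between −0.47 and 0.32 at starts, −0.33 and 0.34 over bodies and −0.29 and 0.34 in the last 2 kb. Of the named genes' changes, 507 recomputed values kept their call, 17 no longer passed and 1 reversed, and of the named levels 60 of 500 moved by more than 1 SD, which with 2 libraries can be small. Depth limits H3K27me3 after the inhibitor, with a median of 2 and 4 window reads per member start.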
